A study of Mus musculus with 8 samples.

Results

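The 9 genes described here encode the receptors, kinases and transcription factors through which cells answer interferon. They are the receptor genes Ifnar1, Ifnar2 and Ifngr1, the kinase genes Jak1 and Tyk2, and the factor genes Stat2, Irf9, Irf1 and Irf7. They were taken from 54532 genes in a table of naive mouse corneas, all 9 were found by Ensembl identifier, and all 9 passed the filter on low values that left 25402 genes for testing. Naive, untreated corneas of male mice of 2 inbred strains were compared, 4 of BALB/cN (labelled Balb/c) and 4 of C57BL/6N. No animal carried an engineered allele or received an agent, and age is not given separately for the sequenced mice in the sources used here, while mice of these strains were phenotyped at 8 to 10 weeks. The study asked which genes differ between the low-lymphangiogenic BALB/cN and the high-lymphangiogenic C57BL/6N cornea. Strain is the only labelled factor, so the strain and any housing or handling that went with it cannot be told apart.

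Type I interferons bind a receptor made of the Ifnar1 and Ifnar2 chains, which activates the kinases TYK2 and JAK1. The kinases phosphorylate STAT proteins, STAT2 joins IRF9 in the complex ISGF3, and ISGF3 switches on antiviral genes through the interferon-stimulated response element (ISRE) in their promoters. Interferon-gamma binds Ifngr1 and Ifngr2, acts through JAK1 and JAK2, and leads to STAT dimers that bind gamma-activated sites (GAS). IRF1 is a target of this second branch, and IRF7 drives the transcription of the interferon-alpha genes. Stat2, Irf9 and Irf7 are themselves known interferon-inducible genes.

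Values are given on 2 scales. The deposited values are regularized log (rlog) values, on a log2 scale and shrunken towards the mean of each gene, and every strain difference on this scale is BALB/cN minus C57BL/6N. Normalized reads are read counts recovered from the rlog values and divided by the size factor of the cornea. The recovered reads summed to 36.7 to 41.2 M in the BALB/cN corneas and 29.7 to 37.0 M in the C57BL/6N corneas. Recovery was less exact at high means. Of the values, 93.7% came out whole at means of 100 to 1000 reads, which holds Ifnar2, 70.0% at 1000 to 5000, which holds Ifnar1, Ifngr1, Tyk2, Stat2, Irf9 and Irf7, and 24.9% above, which holds Jak1 and Irf1. The corneal keratin Krt12 was abundant in every cornea, between 774925 and 971540 normalized reads. Keratan sulfate proteoglycan gene Kera, which marks stromal keratocytes, fell below the other corneas in BALB/cN replicate 2 (1558 reads) and C57BL/6N replicates 3 and 4 (248 and 585 reads) and stood between 26921 and 42646 in the other 5. Lens Cryaa and pigment Tyr were high in BALB/cN replicates 1 and 4. Results for Stat2, Irf9, Irf7, Socs1 and Btrc and counts of calls are therefore also given without these corneas. The difference of Irf1 is also given without the stroma-poor corneas.

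Stat2, Irf9 and Irf7 stood higher in every BALB/cN cornea than in any C57BL/6N cornea, by 2.99-fold, 4.50-fold and 6.00-fold of normalized reads. The other 6 genes, the receptors, both kinases and Irf1, differed by 0.827-fold to 1.08-fold between the strains. With limma across all genes and Benjamini-Hochberg adjustment, 3 of the 9 genes passed the threshold for a call (adjusted p no higher than 0.01), all 3 higher in BALB/cN, where 5.74% of all genes tested were called, 2.83% higher and 2.91% lower. The 4 values of one strain lay all on one side of the other 4 for 4 of the 9 genes, against 18.3% of all genes tested. The 9 genes were selected on this same contrast, so their strain differences and calls are a description and not a test. In whole corneas, fewer cells of a type and less RNA per cell cannot be told apart.

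**Figure D1:**
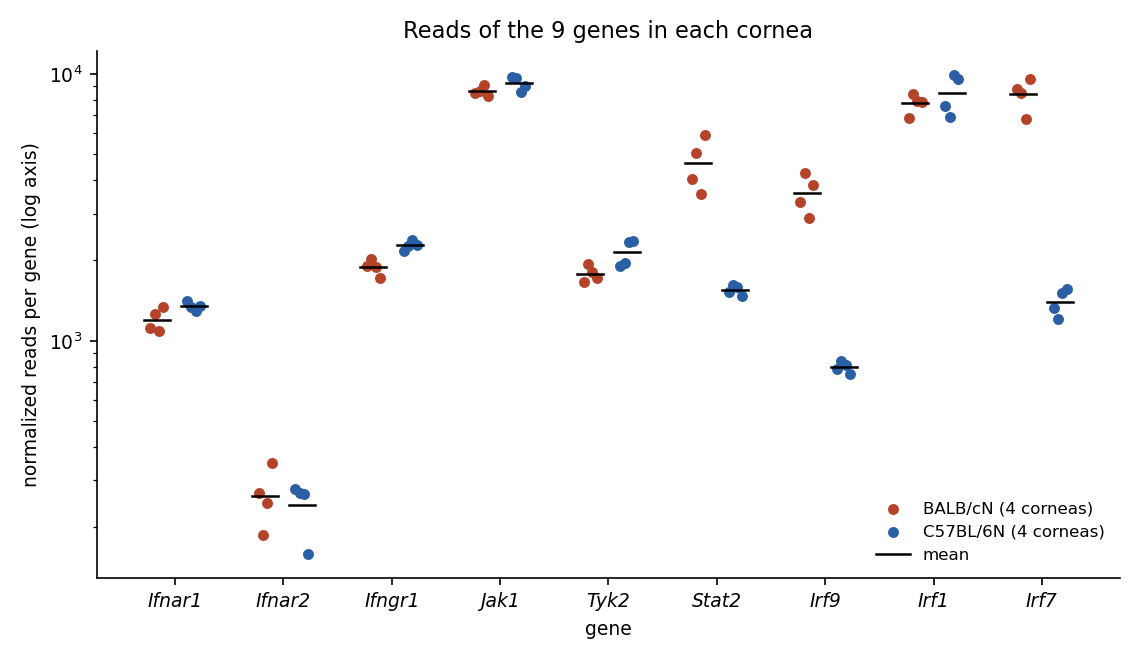
Normalized reads (log axis) of the 9 genes in each of 4 BALB/cN and 4 C57BL/6N corneas, with points for corneas and bars for strain means. Stat2, Irf9 and Irf7 form 2 groups of points that do not overlap, with BALB/cN above, and the points of Ifngr1 do not overlap with C57BL/6N above. Those of the other 5 genes overlap.

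Transcripts of interferon ligands were nearly absent. Of 21 interferon genes listed, which included the interferon-alpha genes, Ifnb1, Ifng, Ifnl2 and Ifnl3, 16 had 0 reads in every cornea. A count of 0 allows up to 3 reads per cornea, for counting error only. The other 5, Ifna13, Ifna15, Ifne, Ifnk and Ifnz, summed to 6 reads over the 4 BALB/cN corneas and 9 over the 4 C57BL/6N corneas, with at most 4 in a cornea for any of them. None passed the filter, so no ligand was tested, and reads shared by the close copies of the interferon-alpha genes may have been left uncounted.

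Ifnar1 (ENSMUSG00000022967, chr16:91485238-91507441, plus strand of GRCm38) encodes the first chain of the type I interferon receptor. It had 1120, 1264, 1084 and 1333 normalized reads in BALB/cN replicates 1 to 4, and 1405, 1340, 1293 and 1351 in the C57BL/6N corneas. The strains overlapped only through BALB/cN replicate 4, and the means were 1200 ± 118 and 1347 ± 45.9 (SD, n = 4 each). The rlog difference was -0.12 ± 0.063 (SE).

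Ifnar2 (ENSMUSG00000022971, chr16:91372783-91405589, plus strand), the second chain, was the lowest of the 9 genes. Its normalized reads were 269, 186, 246 and 349 in BALB/cN and 279, 268, 266 and 159 in C57BL/6N. The ranges overlapped, and the rlog difference of 0.07 ± 0.14 (SE) was smaller than its error. C57BL/6N replicate 4 stood far below the other corneas of its strain. Of its exon bases, 315 are shared with the predicted gene Gm21970 on the same strand.

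Ifngr1 (ENSMUSG00000020009, chr10:19591949-19610229, plus strand) encodes the ligand-binding chain of the interferon-gamma receptor. The BALB/cN corneas had 1910, 2033, 1889 and 1720 normalized reads and the C57BL/6N corneas 2176, 2276, 2397 and 2280. Every BALB/cN value lay below every C57BL/6N value. The C57BL/6N mean was 1.21-fold the BALB/cN mean (1888 ± 129 against 2282 ± 90.2, SD), with an rlog difference of -0.20 ± 0.054 (SE), and the gene was not called at an adjusted p-value of 0.01.

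Jak1 (ENSMUSG00000028530, chr4:101152367-101265282, minus strand), the kinase shared by both interferon branches and many cytokine receptors, was the steadiest of the 9 genes within BALB/cN. Its normalized reads ran from 8295 to 9118 there, a coefficient of variation of 4.11%, and from 8580 to 9793 in C57BL/6N. The strains overlapped and the rlog difference was -0.08. Tyk2 (ENSMUSG00000032175, chr9:21104068-21131243, minus strand), the kinase bound to Ifnar1, had 1657, 1945, 1817 and 1715 normalized reads in BALB/cN and 1914, 1965, 2342 and 2359 in C57BL/6N. BALB/cN replicate 2 lay within the C57BL/6N range, and the rlog difference was -0.19. Tyk2 shares 554 exon bases with the antisense gene 1700084C06Rik. The libraries were strand-specific, but the strand setting of the counting is not given in the sources used here, so reads of the pair cannot be told apart with certainty.

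Stat2 (ENSMUSG00000040033, chr10:128270559-128292849, plus strand) encodes the STAT that is specific to interferon signalling and binds IRF9. The BALB/cN corneas had 4053, 5039, 3543 and 5930.5 normalized reads and the C57BL/6N corneas 1524, 1623, 1588 and 1478. The lowest BALB/cN cornea stood above the highest C57BL/6N cornea by a wide margin, and the spread was larger in BALB/cN, with a coefficient of variation of 22.8% against 4.17%. The rlog difference was 1.16 ± 0.11 (SE), and the log2 ratio of mean normalized reads was 1.58. Without the 3 stroma-poor corneas the rlog difference was 1.11 and was no longer called, and without the 2 lens and pigment corneas it was 1.08 and was called.

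The 250 bases before the RefSeq start of Stat2 are shown because they hold the only ISRE core found among the promoters of the 9 genes. The core was searched as GAAA, any 2 bases and GAAA again, on both strands of windows from 250 bases before to 50 bases after each RefSeq start (GRCm38.p6). The windows of Irf9, from chr14:55603735 and chr14:55604329, begin after its GENCODE start at 55603571, so the bases before that start were not searched. The Stat2 core lies 222 bases before the start, on the minus strand, and is written in capitals in the plus-strand sequence of chr10:128270248-128270497.
Stat2: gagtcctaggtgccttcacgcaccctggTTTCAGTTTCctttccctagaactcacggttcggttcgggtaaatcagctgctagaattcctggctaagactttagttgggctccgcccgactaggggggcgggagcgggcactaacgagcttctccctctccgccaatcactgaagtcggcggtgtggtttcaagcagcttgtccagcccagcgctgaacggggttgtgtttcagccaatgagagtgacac
Of 32851 promoters of this length, 3.44% hold the core. This match is a description of letters and not evidence of a bound site.

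Irf9 (ENSMUSG00000002325, chr14:55603571-55610030, plus strand) encodes the DNA-binding subunit of ISGF3. Its normalized reads were 3309, 4268, 2898 and 3841 in BALB/cN and 783, 838, 808 and 754 in C57BL/6N. The 4 C57BL/6N corneas lay close together and all BALB/cN corneas stood far above them. The rlog difference was 1.59 ± 0.089 (SE) and the log2 ratio 2.17. The rlog difference was 1.50 without the stroma-poor corneas and 1.59 without the lens and pigment corneas. Irf9 shares 123 exon bases on the same strand with Rnf31, the gene before it, whose product is a subunit of the linear ubiquitin ligase. Rnf31 itself rose in BALB/cN by 0.47 on the rlog scale (adjusted p = 0.00176, limma), and the part of the shared bases in that value was not tested.

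Irf7 (ENSMUSG00000025498, chr7:141262706-141266481, minus strand), the inducible factor for interferon-alpha genes, showed the largest strain difference of the 9 genes. The BALB/cN corneas had 8761, 8488, 6815 and 9589 normalized reads and the C57BL/6N corneas 1326, 1211, 1514 and 1559. The groups did not overlap, and the means were 8413 ± 1164 and 1403 ± 163 (SD, n = 4 each). The rlog difference was 1.93 ± 0.090 (SE) and the log2 ratio 2.58, with rlog differences of 2.02 without the stroma-poor corneas and 1.83 without the lens and pigment corneas. The minus-strand sequence of chr7:141266482-141266674, before both the RefSeq and the GENCODE start, is shown because Irf7 moved most, and neither motif was found in it. At its other end the gene shares 45 exon bases with Phrf1 on the opposite strand.
Irf7: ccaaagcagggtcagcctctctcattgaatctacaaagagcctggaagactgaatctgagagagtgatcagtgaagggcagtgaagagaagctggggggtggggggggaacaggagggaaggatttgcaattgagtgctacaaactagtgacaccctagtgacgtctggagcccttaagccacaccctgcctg
The absence of a match says only that these letters are not in this window.

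Irf1 (ENSMUSG00000018899, chr11:53770014-53778374, plus strand), the early target of interferon-gamma, overlapped between the strains. Its normalized reads were 6839, 8430, 7942 and 7856 in BALB/cN and 7618, 6924, 9949 and 9600 in C57BL/6N. The rlog difference was -0.09, and it turned to 0.04 without the stroma-poor corneas. The 2 highest C57BL/6N values were those of the stroma-poor replicates 3 and 4. The 250 bases before its start (chr11:53769764-53770013, plus strand) are shown because they hold a GAS match, searched as TTCNNNGAA on both strands and written in capitals, that begins 90 bases before the start.
Irf1: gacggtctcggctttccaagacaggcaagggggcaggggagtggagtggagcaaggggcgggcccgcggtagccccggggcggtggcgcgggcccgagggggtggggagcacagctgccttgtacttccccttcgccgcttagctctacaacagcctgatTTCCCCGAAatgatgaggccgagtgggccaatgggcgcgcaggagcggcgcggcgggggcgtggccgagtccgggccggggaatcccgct
GAS matches also lay in the windows of Ifnar1 (TTCACGGAA, from 5 bases before the start) and Ifnar2 (TTCCTGGAA, from 214 bases before it), so 3 of the 9 genes held one, against 9.55% of the 27025 genes with a window. Neither motif is part of the other, and no match of one overlapped a match of the other in these windows.

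Per kb of exons, the order of the 9 genes differed between the strains. In BALB/cN, Irf7 (2228 ± 308 normalized reads per kb, SD, n = 4) and Irf1 (1953 ± 168) led with overlapping ranges, followed by Jak1 (1194 ± 49.1). Stat2 (783), Irf9 (664) and Ifngr1 (663) came next, each overlapping its neighbour in the order, then Tyk2 (260), Ifnar1 (202) and Ifnar2 (78.8), whose ranges were apart. In C57BL/6N, Irf1 (2144 ± 372) was followed by Jak1 (1281 ± 79.3) and Ifngr1 (802 ± 31.7), with no overlap between neighbours. Irf7 came next (371) and overlapped Tyk2 (313), and Stat2 (262), Ifnar1 (227), Irf9 (148) and Ifnar2 (72.9) followed without overlap.

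**Figure D2:**
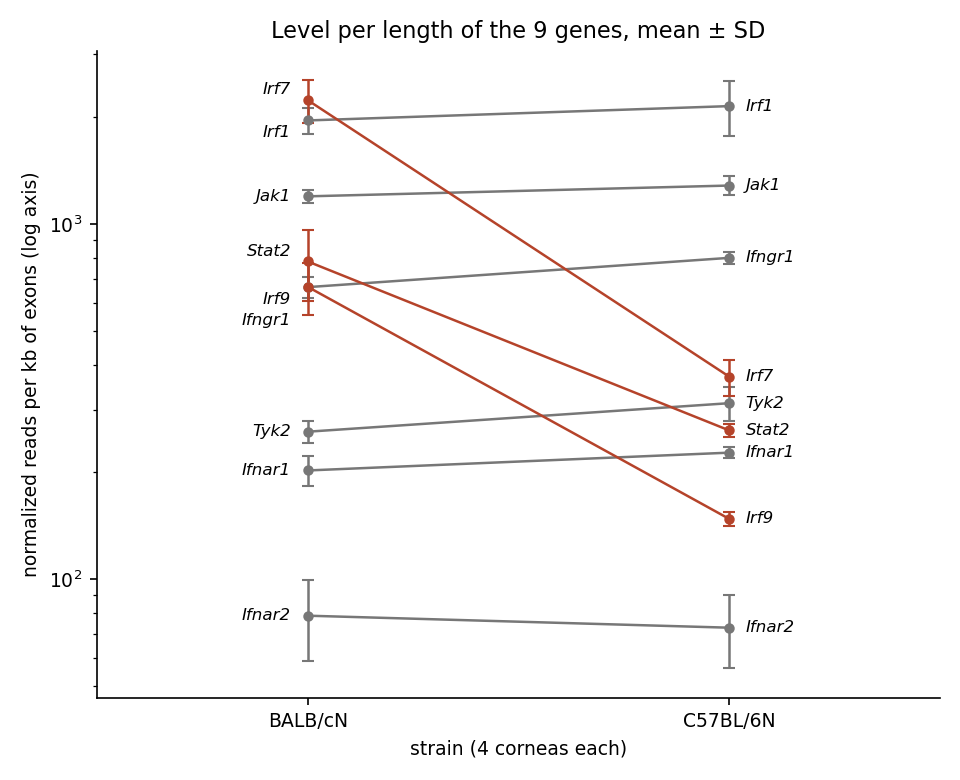
Mean normalized reads per kb of exons (log axis) of the 9 genes in BALB/cN and C57BL/6N corneas, with SD bars over 4 corneas and a line joining the 2 strains for each gene. The lines of Irf7, Stat2 and Irf9 (red) fall from BALB/cN to C57BL/6N, and those of the other genes (grey) are nearly level.

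Ratios between partners describe the same levels within each cornea. Irf7 stood at 3.73 ± 0.449 times Irf3 per kb in BALB/cN and 0.512 ± 0.0437 times in C57BL/6N (SD, n = 4 each), so the inducible factor exceeded the constitutive one in all BALB/cN corneas and in no C57BL/6N cornea. The ratio of Irf9 to Stat2 was 0.713 to 0.932 in BALB/cN and 0.560 to 0.568 in C57BL/6N, and these ranges did not overlap. Within C57BL/6N this ratio varied by an SD of only 0.00389. The ratios of Jak1 to Tyk2 (4.61 and 4.16), of Ifngr1 to Ifngr2 (1.03 and 1.09) and of Ifnar1 to Ifnar2 (2.69 and 3.28, BALB/cN first) overlapped between the strains.

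The spread among the BALB/cN corneas followed a common order in several of these genes. BALB/cN replicate 3 was the lowest of its strain for Stat2, Irf9 and Irf7, and for 24 of the 25 ISGF3 target genes described below, where it was the lowest for 19.5% of all genes tested. BALB/cN replicate 4 was the highest for 18 of these 25. The mean of the ISGF3 targets in replicate 3 was 0.41 below the BALB/cN mean on the rlog scale and that in replicate 4 was 0.28 above it, with Stat2 at -0.28 and 0.30. Across the 8 corneas, deviations from the strain means had a Pearson r of 0.85 between Stat2 and Irf9, 0.61 between Stat2 and Irf7 and 0.46 between Irf7 and Irf9, as a description, since these values share libraries and tissue composition. Deviations of Stat2 and Ifnar1 had an r of 0.90, and those of Tyk2 and Irf1 an r of 0.93.

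**Figure D3:**
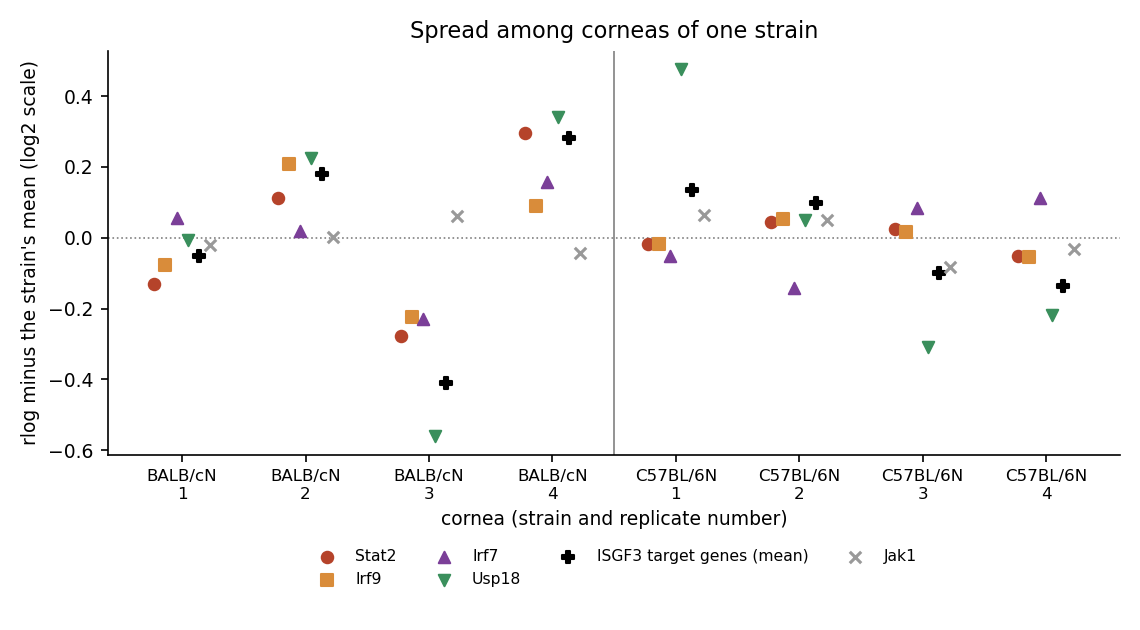
Deviation of the rlog value of each cornea from the mean of its strain (log2 scale) for Stat2, Irf9, Irf7, Usp18, the mean of 25 ISGF3 target genes, and Jak1 for comparison. All but Jak1 are lowest in BALB/cN replicate 3, where Usp18 is 0.56 below its mean, and in C57BL/6N Usp18 and the target mean are highest in replicate 1, while Stat2 and Irf9 are highest in replicate 2.

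Markers of other cell types are given beside these results. Summed macrophage markers ran from 1578 to 2560 normalized reads in BALB/cN and from 1303 to 2193 in C57BL/6N. Cd68 was the largest part of each sum (1251 to 1381 and 903 to 1244). All 9 genes of the list were higher in BALB/cN by sign, and none was called. Csf1r ran from 78.7 to 401 and from 37.9 to 318. Markers of plasmacytoid dendritic cells summed to 3082 to 7333 and 1978 to 5620. Most of this was Tcf4 (2186 to 5959 and 1701 to 5179), and Siglech gave at most 20.3 in a cornea. By sign, 4 of the 6 were higher in BALB/cN and 2 lower, Ccr9 (-0.55) and Ly6d (-0.16), whose strains did not overlap. Bst2, which is also an ISGF3 target, was the only one called. Of 8 T and NK cell markers 5 were at 0 in every cornea, and Cd3e had 0 reads in all BALB/cN corneas. The dendritic cell markers Xcr1 and Ccr7 and 4 of 5 neutrophil markers were at 0. Clec9a had 0 recovered reads in every cornea but was not at 0 on the rlog scale. BALB/cN replicate 4 had the highest macrophage sum and the highest Stat2 and Irf7 values, and BALB/cN replicate 2 had the lowest macrophage sum of its strain and the highest Irf9 value. Of 7 conjunctival genes, 5 were called lower in BALB/cN, and all 7 were separated between the strains, against 2.91% and 18.3% of all genes tested. The other 2 had differences in the opposite direction, Muc5ac of 2.19 (adjusted p = 0.0225, limma) and Krt8 of 0.40 (adjusted p = 0.0111, limma). The summed epithelial markers overlapped between strains (1.91e+06 to 2.29e+06 and 1.94e+06 to 2.22e+06), and the part of these cell types in the results was not tested.

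Among the other receptor, kinase and STAT genes, those with the highest means that were not called had small differences. Stat3 had a difference of -0.15, Stat6 of -0.08, Jak2, the kinase of the interferon-gamma receptor, of 0.08 and Ifngr2, the second chain of that receptor, of -0.15, against a median of 0.01 for all genes tested.

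None of the 6 other IRF genes was called, where 5.74% of all genes tested were called, so 0 calls among so few is not unusual. Irf8, a factor of macrophages and dendritic cells, had the largest difference of these, 0.57 (97.9 ± 18.2 against 38.3 ± 17.2 normalized reads, SD, n = 4 each), and its strains did not overlap. Irf2 had a difference of 0.19, Irf3, the constitutive partner of IRF7, of -0.21, and Irf5 of 0.19. With limma and the mean of stromal markers as a covariate, 2 of the 6 were called higher, Irf2 and Irf8. None of the 10 kinases and adaptors that activate IRF3 and IRF7 was called either, beside the same share of all genes, and their median was -0.06. With that covariate Irak4, a kinase of the MyD88 adaptor, was called lower, and without it the difference of Irak4 was -0.29 with no overlap between the strains. Among them Mavs, the adaptor of the RNA sensors, had a difference of -0.14, Irak1 of -0.03, Tbk1 of 0.16 and Traf6 of -0.12.

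Of 14 negative regulators, 2 rose and 1 fell in BALB/cN, and 11 were not called. Among all genes tested 2.83% were called higher and 2.91% lower. Usp18, the ISG15 protease that also blocks the Ifnar2 chain, rose most of them. It had 1582, 1940, 966 and 2145 normalized reads in BALB/cN and 109, 62.9, 32.9 and 41.3 in C57BL/6N, an rlog difference of 3.21 ± 0.22 (SE, adjusted p = 1.55e-05, limma). Socs1, the inducible inhibitor of the JAK kinases, rose by 0.66 (adjusted p = 0.00637, limma), and without single corneas its adjusted p-value reached 0.0261. Btrc, whose product directs the ubiquitination of Ifnar1, fell by 0.48 (adjusted p = 0.00142, limma), from 1648 ± 137 normalized reads in C57BL/6N to 1047 ± 81.4 in BALB/cN (SD, n = 4 each). Neither Socs1 nor Btrc was called without the stroma-poor corneas (adjusted p = 0.0583 and 0.0262) or without the lens and pigment corneas (0.0631 and 0.0127, limma). Of those not called, Ptpn1 had a difference of 0.43, Pias1 of 0.06, Ptpn11 of -0.12 and Pias3 of 0.03.

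Target genes of ISGF3 were higher in BALB/cN almost without exception. Of 25, 24 were called, all higher, with a median rlog difference of 1.95 against 0.01 for all genes tested, where 5.74% were called. The list was chosen with these results known, so its counts describe the targets and are not independent evidence. Folds of mean normalized reads ran from 2.097 for Ddx58, the RNA sensor RIG-I, to 72.6 for Rsad2, the antiviral enzyme viperin. Oas2, an RNA-sensing synthetase, had 9916, 10747, 7073 and 13022 normalized reads in BALB/cN and 383, 335, 150 and 222 in C57BL/6N (rlog difference 3.85 ± 0.19, SE, adjusted p = 1.80e-06, limma). Isg15, the ubiquitin-like protein that Usp18 removes, rose by 2.54 (adjusted p = 1.14e-06, limma), and Zbp1, the sensor of Z-form nucleic acid, by 3.23 (adjusted p = 9.44e-07, limma).

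The remaining called ISGF3 targets fell into groups of function. Of genes classed as antiviral effectors, the RNA of Cmpk2 (rlog difference 3.66), Mx1 (3.04), Mx2 (2.91), Ifit1 (2.79), Ifit3 (1.61) and Bst2 (1.73) rose. So did the synthetase genes Oas3 (2.73), Oas1a (2.20), Oasl2 (1.11) and Oasl1 (0.97), and the RNA sensors and their kin Dhx58 (1.95), Ifih1 (1.15), Ddx58 (0.80) and Eif2ak2 (0.95). Rtp4 (3.10), Xaf1 (2.23), Herc6 (1.43), Parp14 (1.12), Epsti1 (0.89) and Samd9l (0.84) completed the called genes. Ifit2, which was not called, had a difference of 1.18, with 485 to 770 normalized reads in BALB/cN and 83.6 to 357 in C57BL/6N. Ifit3 and Oas1a have close copies in the genome among which reads may be split, so their values are uncertain. Of the 18 targets with a promoter in the RefSeq table, 10 hold the ISRE core (55.6%).

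Of 18 interferon-gamma target genes, 9 were called, all higher in BALB/cN, where 2.83% of all genes tested were called higher. The other 9 were not called, and the median of the 18 was 0.47. The GTPase genes Gbp3 (rlog difference 2.36), Irgm1 (1.75), Ifi47 (0.94) and Gbp2 (0.70) rose, as did genes of antigen presentation, B2m (1.68), Nlrc5 (1.08), Tap1 (0.87) and Psmb9 (0.77), and the checkpoint ligand gene Cd274 (0.40). Gbp3 had the smallest adjusted p-value of these (1.50e-06, limma). Many of these genes also answer type I interferon. Of those not called, Tap2 had a difference of 0.16, Psmb8 of 0.40, Wars of -0.04 and Psmb10 of 0.31. The chemokine genes Cxcl9 and Cxcl10 were at 0 reads in all C57BL/6N corneas. In BALB/cN, all 24 reads of Cxcl9 were in replicate 1, and Cxcl10 had 11, 8, 0 and 4 reads.

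**Figure D4:**
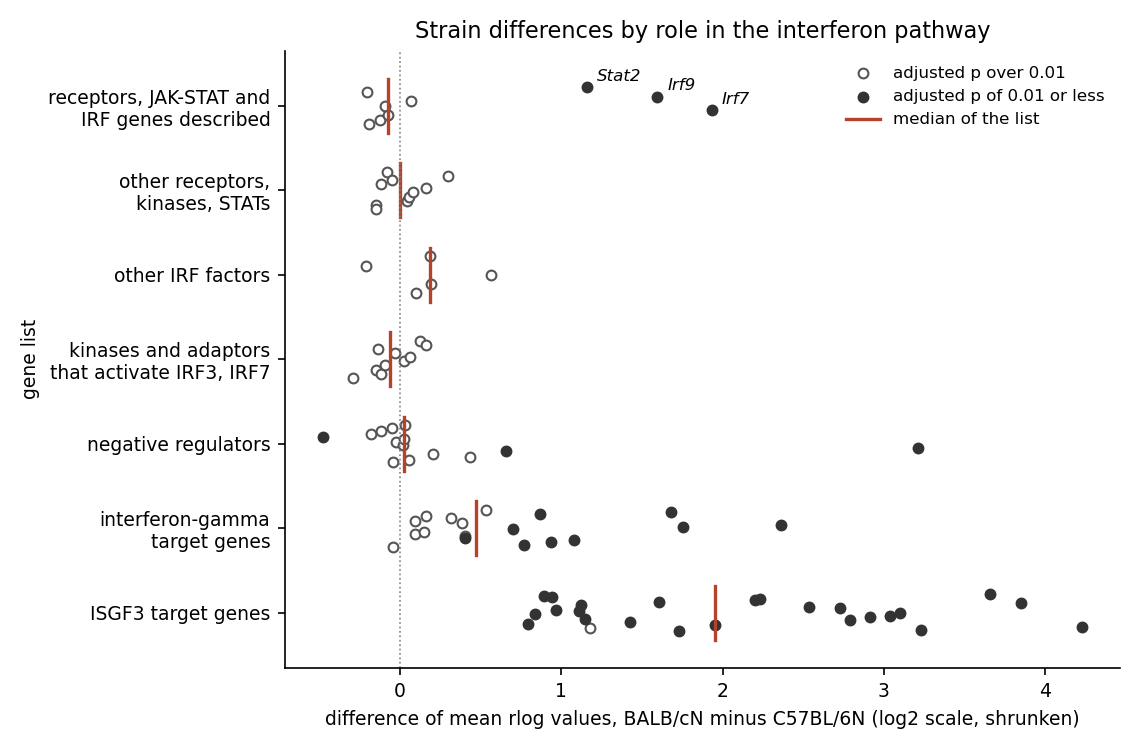
Difference of mean rlog values (BALB/cN minus C57BL/6N) for the tested genes reported here, by role, with filled points for called genes and red bars for list medians. Filled points appear in the top row only for Stat2, Irf9 and Irf7, are 0 among the other IRF genes and the activating kinases and adaptors, and make up 24 of 25 ISGF3 targets.

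Together, 37 of the 84 tested pathway genes outside the 9 were called, 36 higher and 1 lower, against 5.74% of all genes tested. Of these 37, 24 were ISGF3 targets, and the lists were chosen with earlier results known. Without the lens and pigment corneas 22 were called higher and 0 lower, among them 18 of the 25 ISGF3 targets and 3 of the 18 interferon-gamma targets. Without the stroma-poor corneas these counts were 19 and 6. The interferon-gamma count was 5 after median centring, without BALB/cN replicate 4 and without C57BL/6N replicate 3. Leaving out any single cornea removed between 3 and 8 of the 40 calls among the 9 genes and the pathway genes, and the calls removed were those of B2m, Bst2, Cd274, Epsti1, Gbp2, Ifi47, Ifit3 and Socs1. The highest adjusted p-values of these 8 genes over the 8 fits lay between 0.0130 and 0.0261. The calls of the other 29 pathway genes stayed in every such fit. Those of Stat2, Irf9 and Irf7 did too, but these genes were selected on this contrast, so this is no support.

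The genes whose values followed each of the 9 most closely over the 8 corneas are given as a description. For Stat2 these were Irgm1 (Pearson r = 0.998), Mroh7 and Gabrp. For Irf7 they were Apol9a, which has a close copy that may share its reads, Trim30a and Sp110 (each r = 0.997), and for Irf9 they were Oas3, Isg15 and Ifit1 (0.997, 0.996 and 0.996). After removal of the strain means, Irgm1 (r = 0.98) and Pml led for Stat2, Oasl2 (r = 0.99) led for Irf7, and Gm17535 (r = 0.97) led for Irf9. For the 6 genes without a call the leaders were other genes, Gm44185 for Ifnar1, Gm12097 for Ifnar2, Med8 for Ifngr1, Cdc42 for Jak1, Gm38120 for Tyk2 and Rassf7 for Irf1. All 27 leading genes had an r of at least 0.936 over 8 corneas, chosen from 25402 genes, and corneas of one strain share the strain difference.

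Of the 17 tested protein-coding genes next to the 9 genes, 2 were called, where 5.74% of all genes tested were called. Rnf31, before Irf9, rose, and Il20ra, after Ifngr1, fell by 0.60 (adjusted p = 0.00802, limma). Beside Stat2, Apof had a difference of 0.03 and Il23a of -0.09, and beside Irf7, Phrf1 had a difference of -0.14 and Deaf1 of -0.12. Rec8, after Irf9, had a difference of -0.08. Ifnar2, Il10rb, Ifnar1 and Ifngr2 lie side by side on chromosome 16, and Il10rb, a chain of the interferon-lambda receptor, had a difference of -0.12.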

How the data were processed

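Total RNA of 8 naive corneas was measured by strand-specific paired RNA sequencing. The authors aligned the reads to strain pseudo-genomes of GRCm38 with TopHat2 2.1.1, so that strain variants were allowed for, counted them over the exons of Ensembl genes with HTSeq 0.7.1 and transformed them with DESeq2 1.30. The deposited values are rlog values on a log2 scale, normalized for library size and shrunken towards the mean of each gene, which understates the change of weakly expressed genes. The deposited table lists 54532 genes, 23218 of them at 0 in every cornea. Sample labels gave the cornea of every column.

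The strain comparison used limma 3.58.1 in R 4.3.3 (lmFit, and eBayes with a variance trend) on the 25402 genes whose rlog values averaged 0 or more. P-values were adjusted by Benjamini-Hochberg, and a gene was called where the adjusted value did not exceed 0.01. The p-values measure the spread between 4 corneas per strain, since the sources do not say that the corneas came from separate mice or separate litters. The procedure was also run on simulated data with independent noise. That noise lacks the shared tissue variation of these corneas, so the run does not measure the error of these calls.

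Inversion of the rlog formula gave back the read counts, with starting constants from mean counts of 1577 genes in a supplement of the study and final constants from the share of whole values. Of the values of genes with normalized means of 100 to 1000 reads, 93.7% came within 0.1 of an integer, compared with 20.0% once random fractions had been added, and the share was 70.0% at 1000 to 5000 reads and 24.9% above. PCR copies of a molecule are counted separately, so counting error is understated. Lengths and positions are from GENCODE (GRCm38), and promoters from RefSeq (GRCm38.p6), with at least 1 window for each of the 9 genes.

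The 9 genes and all gene lists were chosen with earlier results of these data known. Named genes are the 9, every called gene of the pathway lists with up to 4 others per list of the highest mean, for each of the 9 the 3 genes most alike by Pearson r over the corneas and by deviations from strain means, the nearest tested protein-coding genes, and the markers Krt12, Kera, Cryaa, Tyr, Csf1r, Siglech and Cd3e. Single-gene results of 2 pathway genes are not reported here. Rnf31, Gm21970 and 1700084C06Rik are named for shared exon bases. Cxcl9, Cxcl10, Irf8, Irak4, Muc5ac, Krt8, Cd68, Tcf4, Ccr9, Ly6d, Clec9a, interferon genes and markers at 0 were named after their values were seen. So were the dendritic cell and neutrophil markers Zbtb46, Itgax, Flt3 and Csf3r. Alternatives were other variance settings, filters, scalings, thresholds and covariates, voom on recovered counts, the replicate number as a block, and each cornea left out. Leaving out the lens and pigment corneas or the stroma-poor corneas was added after seeing the data.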

Additional observations from a re-analysis of the deposited data

Results flagged for a closer look

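In 9 of 186 groups of 4 corneas, formed by 93 genes in 2 strains, the highest or lowest cornea stood apart from the other 3 by more than the 95% critical value of Dixon's ratio, where chance gives about 9.3. Among the 9 genes this was Ifnar2 in C57BL/6N replicate 4 (ratio 0.906, rlog 7.57 against 8.01 for the nearest cornea), which is a stroma-poor cornea. Among the pathway genes, Cxcl9 in BALB/cN replicate 1 had a ratio of 0.998, Rtp4 in BALB/cN replicate 3 of 0.841 and Ticam1 in BALB/cN replicate 1 of 0.834. In C57BL/6N these were Ifit3 (0.910) and Isg15 (0.863) in replicate 1, Stat4 in replicate 2 (0.876), and Myd88 (0.905) and Irak1 (0.842) in replicate 3. Rtp4 was low in BALB/cN replicate 3, and the other ISGF3 targets named here were high in C57BL/6N replicate 1.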

How the results depend on the processing

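Over the 15 alternatives that recomputed it, the difference of Irf7 ran from 1.83 to 2.58 and that of Irf9 from 1.50 to 2.15. That of Stat2 ran from 1.06 to 1.55. Ifnar2 changed sign in 5 of 15 and Irf1 in 1. None of the other 6 genes was called in any of these, although Ifngr1 joined the calls at an adjusted p of 0.05. The 9 genes were selected on this contrast, so their calls over settings are not support for it. Recalibration to an empirical null (SD 1.67) left 0 genes called by limma, 0 of the 9, and 0 pathway genes higher or lower, with 1725 genes at an unadjusted p under 0.05 and a smallest adjusted p of 0.0946. All genes called numbered 958 after median centring, 2438 with a stromal covariate, 2842 at an adjusted p of 0.05, 447 without lens and pigment corneas, 852 without stroma-poor corneas, and 953 to 1163 without single corneas. Without stroma-poor corneas 2 of the 9 genes were called. Pathway genes called higher numbered 22 without lens and pigment corneas, and those called lower 0 without either set of corneas and 2 with the stromal covariate or at 0.05. Pathway genes called higher numbered 31 with voom on recovered counts. Same-numbered corneas did not deviate together (correlations 0.305, -0.53, -0.203 and -0.454), so the numbers do not pair them. The replicate block is given for completeness, with 554 genes called, 3 of the 9, and 28 pathway genes higher and 0 lower. The cause of these changes was not tested, and fits that left out corneas also had fewer of them. Median centring moved the median difference of all genes from 0.01 to -0.07. Depth limits the ligands, whose few reads allow no comparison, and shrinkage limits rlog differences of genes with few reads.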
